A study of Ovis aries with 23 samples.

Results

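PAQR6, NPSR1, C1orf110 and SOX14 are 4 genes that the study picked as markers of short photoperiod (SP) in the pars tuberalis (PT) of sheep and that had few reads there. They were taken by name, as ENSOARG00000005692, ENSOARG00000005903, ENSOARG00000010949 and ENSOARG00000015598, and are 4 of the 25197 genes with a read count in each of 23 PT samples. The study chose them from several RNA sequencing comparisons that include these samples. Their levels on SPs and on long photoperiods (LPs) are therefore a description, and no test of SPs against LPs given here is independent evidence that they mark SPs. All 23 samples came from neutered male Scottish blackface sheep housed under artificial light, either on SPs (5 samples, named in the study as 12 weeks of SPs) or after a move from SPs to LPs for 1 day, 7 days or 28 days (6 samples each). No agent or allele differs between the groups. The labels give neither age nor hour of sampling, and do not say whether a sample is 1 animal, so that p-values measure the spread between these samples only.

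The PT is a thin layer of endocrine tissue around the pituitary stalk that reads day length through the nightly melatonin signal and, on LPs, releases thyrotropin toward the hypothalamus. NPSR1 is the G-protein-coupled receptor for neuropeptide S, a peptide best known for its action on arousal in the brain. PAQR6 belongs to the progestin and adipoQ receptor family of membrane receptors, several of which bind progesterone-like steroids at the cell surface. SOX14 is a DNA-binding protein of the SOX group, known for its part in the formation of neurons in the brain. C1orf110, now named CCDC190, encodes a coiled-coil protein whose role is little known.

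Total counts per sample lay between 1852503 and 4413929 in 22 samples and were 307952 in LP day 1 sample 4. Levels are given in CPM, which are counts scaled to the library total, after trimmed mean of M values (TMM) normalization over the 23 samples. In LP day 1 sample 4, 3 counts stood for 8.9 CPM, so that a level under it could not be told from 0 there, counting error alone considered. LP day 1 samples 3 and 4 had a chi-square of 1.14 per gene, the lowest of any pair within a group, where 1 is counting noise alone. This measure shrinks as depth falls, and the shallow sample 4 had low values with its other partners too, from 1.75 to 7.16. They were kept as 2 samples, and the values with both summed are named where they change a result. CHGA, which the study used as an SP marker of PT thyrotrophs, stood at 793 CPM or more in every sample. The study also describes a role of CHGA in gonadotrophs and somatotrophs of the pars distalis. CHGA reads alone therefore do not show PT content. The adjoining pars distalis was present, with prolactin (PRL), its most abundant gene here, which ranged from 21521 to 242617 CPM.

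NPSR1 was lower on LPs from day 7 on, and at LP day 28 it differed from SPs by more than the other 3 genes did. It stood at 4.24, 9.82, 5.48, 7.13 and 12.4 CPM in SP samples 1 to 5, from 16 to 44 counts. At LP day 1 it ranged from 2.19 to 11.8 CPM with a median of 6.32, at LP day 7 from 1.27 to 3.43 CPM with a median of 2.39, and at LP day 28 from 0.336 to 1.94 CPM with a median of 0.627. Every LP day 7 and LP day 28 sample was below every SP sample, whereas 3 LP day 1 samples were below all SP samples and the other 3 were among them. The group means were 7.82 ± 3.31 CPM on SPs (SD, n = 5), then 6.50 ± 3.92, 2.29 ± 0.874 and 0.884 ± 0.639 CPM on the LP days in order (SD, n = 6 each).

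Compared with SPs, NPSR1 fell by 3.11 on the log2 scale at LP day 28 (standard error, SE, 0.431; FDR 0.00133; quasi-likelihood test of edgeR, Benjamini-Hochberg adjusted). On day 7 of LPs it was 3.43-fold lower, which is -1.78 on the log2 scale (SE 0.346, FDR 0.0477, edgeR). The call at LP day 7 was close to the threshold of 0.05 and was lost in 8 of the 11 fits that left out 1 sample, all but those without SP sample 1, SP sample 3 or LP day 7 sample 6, with log2 fold changes from -1.95 to -1.55 and FDR values from 0.032 to 0.137 over all 11 edgeR fits. The call at LP day 28 held in each of the 11 such fits, between -3.38 and -2.88. At LP day 1 the difference from SPs was within the spread between samples, at -0.34 on the log2 scale (SE 0.414, FDR 1, edgeR). In bulk tissue such as this, fewer cells that express a gene and less RNA per cell cannot be told apart.

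LP samples alone gave the same order of levels for NPSR1. Between LP days 1 and 28 it differed by -2.76 in log2 (SE 0.512, FDR 0.0191, edgeR), and the 6 samples of each day did not overlap. This call was lost without LP day 1 sample 1 or 6 or LP day 28 sample 3 or 6, and the value lay between -3.02 and -2.38 over all 12 fits that left out 1 sample. It was also lost with the PRL level as a covariate, an alternative chosen after seeing the data (-2.20, FDR 0.217, edgeR). PRL itself had a mean of 79654 CPM at LP day 1 and of 153866 CPM at LP day 28, and its part in the NPSR1 value was not tested otherwise. The study followed circulating prolactin as a hormone output that is low on SPs. That is a blood level, whereas PRL here is RNA of the dissected tissue, at 25231 to 213046 CPM within LP day 1. How far this covariate depends on photoperiod is therefore not known from the blood level. The intermediate steps did not pass the threshold. They were -1.44 from LP day 1 to LP day 7 (SE 0.425, FDR 0.739, edgeR) and -1.33 from LP day 7 to LP day 28 (SE 0.45, FDR 0.524, edgeR). Unadjusted, the edgeR p was 0.00337 from LP day 1 to LP day 7 and 0.00848 from LP day 7 to LP day 28. The order was thus SP, LP day 1, LP day 7 and LP day 28. No direct neighbours in it were called, while SPs differed from LP days 7 and 28 and LP day 1 from LP day 28.

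Few counts limited the precision of NPSR1 on LPs. All 6 LP day 28 samples held 16 NPSR1 counts together (95% Poisson interval 9.15 to 26), and 4 of them had 3 counts or fewer. As a share of the mean, the SD was 42.4% on SPs and 60.3%, 38.2% and 72.4% on the LP days in order. Reads carry no molecular identifiers, so such intervals cover counting error only. The ratio of the variance between samples to that of counting alone was 1.18 at LP day 7 and 1.23 at LP day 28, but this ratio grows with the counts, so at so few counts it does not show a small spread between samples.

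**Figure D1:**
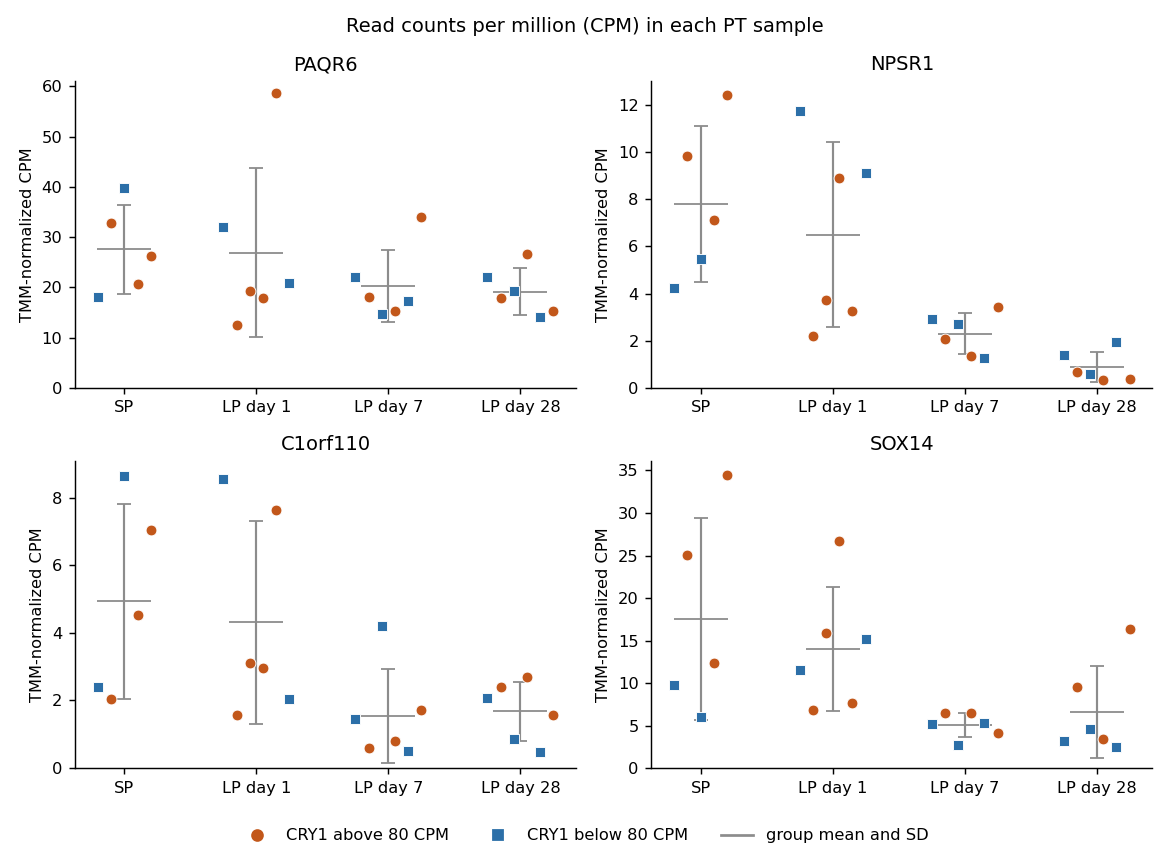
TMM-normalized CPM (vertical axes) of PAQR6, NPSR1, C1orf110 and SOX14 in each of the 23 PT samples by group, with points coloured by whether the clock gene CRY1 was above or below 80 CPM and grey bars for group mean and SD. For NPSR1 all LP day 7 and LP day 28 points lie at or below 3.43 CPM and all SP points at or above 4.24 CPM, whereas for PAQR6 the 4 groups overlap.

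SOX14 was 3.42-fold lower at LP day 7 and 2.7-fold lower at LP day 28 than on SPs in the fit, but without a call at the threshold. Its SP samples were far apart, at 9.80, 25.1, 6.06, 12.3 and 34.4 CPM in samples 1 to 5. LP day 1 samples ranged from 6.87 to 26.7 CPM with a median of 13.4, LP day 7 samples from 2.71 to 6.53 CPM with a median of 5.28, and LP day 28 samples from 2.42 to 16.4 CPM with a median of 3.96. SP sample 5 was the highest of all 23, followed by LP day 1 sample 4, from 9 counts only, and SP sample 2. SP sample 3 was within the range of LP day 7. LP day 28 sample 6, at 16.4 CPM, was above 3 of the 5 SP samples. The group means were 17.5 ± 11.8 CPM on SPs (SD, n = 5), then 14.0 ± 7.27, 5.06 ± 1.46 and 6.59 ± 5.44 CPM (SD, n = 6 each).

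Against SPs, SOX14 had a log2 difference of -1.78 on LP day 7 (SE 0.387, FDR 0.0665, edgeR) and -1.43 at LP day 28 (SE 0.471, FDR 0.182, edgeR). The LP day 7 value passed the threshold without SP sample 3 (FDR 0.0236, edgeR), in edgeR's exact test (FDR 0.00297) and in DESeq2 (adjusted p 0.00152). On LP day 1 the log2 difference was -0.51 (SE 0.402, FDR 1, edgeR), which was within the spread. Without LP day 28 sample 6 the value at LP day 28 was -1.90 (FDR 0.104, edgeR), and with the PRL level as a covariate, chosen after seeing the data, it was -0.90 (FDR 0.515, edgeR). PRL had a mean of 72142 CPM on SPs and of 153866 CPM at LP day 28. That difference was itself not called (log2 1.09, SE 0.366, FDR 0.192, edgeR). The part of PRL in the SOX14 value was not tested otherwise.

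Between LP days 1 and 7, SOX14 was the only one of the 4 genes whose samples did not overlap. All 6 LP day 1 samples, at 6.87 CPM or above, were higher than all 6 LP day 7 samples, at 6.53 CPM or below. The log2 difference was -1.28 (SE 0.304) and ranked 19 of 14897 genes by p, but its FDR was 0.428 in edgeR's quasi-likelihood test, which did not call it, and 0.0259 in edgeR's exact test, which did. From LP day 7 to LP day 28 SOX14 differed by 0.35 in log2 (SE 0.405, FDR 0.916, edgeR), which became -0.12 without LP day 28 sample 6. From LP day 1 to LP day 28 it differed by -0.92 (SE 0.411, FDR 0.593, edgeR), or by -0.36 with the PRL level as a covariate (FDR 0.887, edgeR). The order of means was SP, LP day 1, LP day 28 and LP day 7, and no neighbours in it were called by the quasi-likelihood test. From LP day 1 to LP day 28 its unadjusted p in that test was 0.0369. As a share of its mean, the SD of SOX14 was 67.5% on SPs and 52%, 28.8% and 82.5% on the LP days in order.

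C1orf110 had the fewest counts on SPs of the 4 genes, from 6 to 30 per sample. It stood at 2.38, 2.03, 8.66, 4.54 and 7.05 CPM in SP samples 1 to 5. LP day 1 samples ranged from 1.56 to 8.55 CPM with a median of 3.04, LP day 7 samples from 0.509 to 4.21 CPM with a median of 1.13, and LP day 28 samples from 0.484 to 2.69 CPM with a median of 1.82. The groups overlapped in every comparison, and SP samples 1 and 2 and LP day 1 samples 2 and 6 were within the range of LP day 28. LP day 7 sample 3, at 4.21 CPM, stood above the other 5 samples of its day, which were at 1.71 CPM or less. Means were 4.93 ± 2.89 CPM on SPs (SD, n = 5), then 4.31 ± 3.00, 1.55 ± 1.39 and 1.68 ± 0.874 CPM (SD, n = 6 each).

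The differences of C1orf110 from SPs did not pass the threshold. In log2 it differed by -0.11 on LP day 1 (SE 0.478, FDR 1, edgeR), -1.69 on LP day 7 (SE 0.522, FDR 0.16, edgeR) and -1.51 on LP day 28 (SE 0.454, FDR 0.143, edgeR). Without LP day 7 sample 3 the LP day 7 value was -2.29 (FDR 0.0765, edgeR). Between LP days the log2 difference was -1.58 from day 1 to day 7 (SE 0.532, FDR 0.882, edgeR), -1.39 from day 1 to day 28 (SE 0.47, FDR 0.399, edgeR) and 0.18 from day 7 to day 28 (SE 0.518, FDR 0.973, edgeR). The last of these was 0.78 without LP day 7 sample 3. The order of means was SP, LP day 1, LP day 28 and LP day 7, and no neighbours were called at the threshold. From LP day 1 to LP day 28 the unadjusted edgeR p was 0.00777, before adjustment over the 14820 genes tested.

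PAQR6 differed least between photoperiods. It stood at 18.0, 32.8, 39.8, 20.7 and 26.2 CPM in SP samples 1 to 5. LP day 1 samples ranged from 12.5 to 58.6 CPM with a median of 20.1, LP day 7 samples from 14.7 to 34.0 CPM with a median of 17.7, and LP day 28 samples from 14.0 to 26.6 CPM with a median of 18.6. The highest sample of all 23 was thus an LP sample, LP day 1 sample 5, and SP sample 1 was below the median of LP day 28. Means were 27.5 ± 8.91 CPM on SPs (SD, n = 5), then 26.9 ± 16.8, 20.2 ± 7.20 and 19.2 ± 4.62 CPM (SD, n = 6 each).

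In the edgeR test, PAQR6 had log2 fold changes from SPs of 0.01 at LP day 1 (SE 0.322, FDR 1), -0.45 at LP day 7 (SE 0.241, FDR 0.406) and -0.51 at LP day 28 (SE 0.212, FDR 0.287). The 95% interval of the LP day 28 value ran from -0.93 to -0.09, before adjustment for the genes tested. Between LP days, PAQR6 values were -0.48 from day 1 to day 7, -0.05 from day 7 to day 28 and -0.53 from day 1 to day 28, with standard errors of 0.313, 0.208 and 0.288 and FDR values of 0.894, 0.982 and 0.673 (edgeR). Without LP day 1 sample 5, the change from day 1 to day 7 was -0.06 and that from day 1 to day 28 was -0.12. The sign at LP day 1 against SPs reversed in 5 of 11 fits that left out 1 sample. The order of means was SP, LP day 1, LP day 7 and LP day 28, and no neighbours differed beyond their spread. In a RefSeq annotation of another sheep assembly (ARS-UI_Ramb_v3.0), PAQR6 overlaps the protein-coding genes PMF1 and BGLAP. The strand setting of the counting was not stated, so reads of these genes cannot be told apart from PAQR6 reads with certainty. NPSR1 overlaps 1 non-coding RNA gene there, and SOX14 and CCDC190 overlap none.

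**Figure D2:**
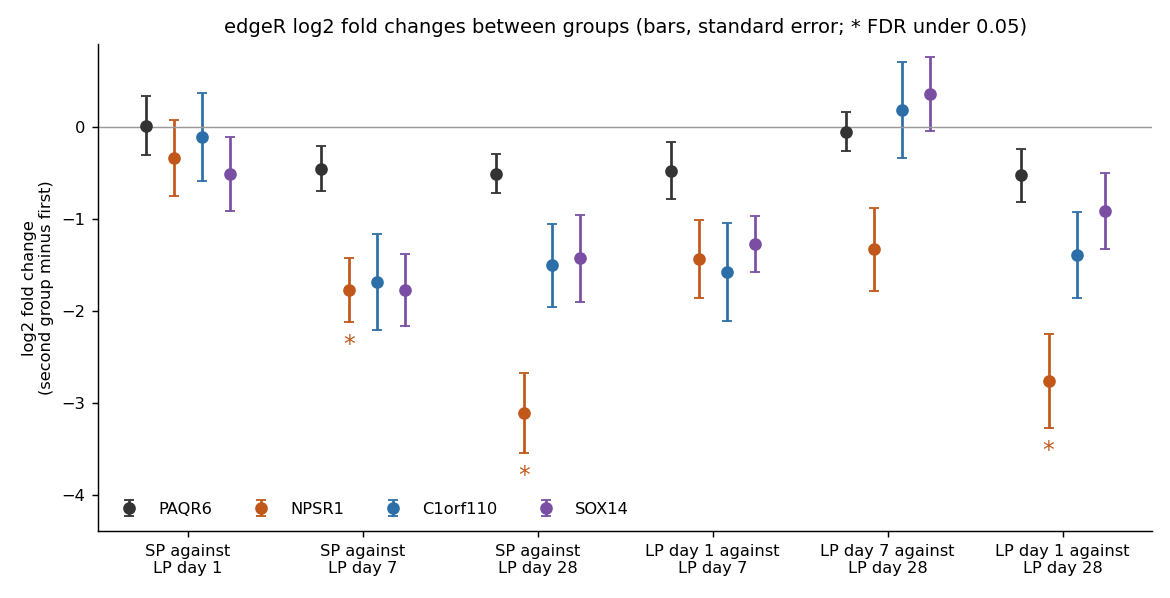
Log2 fold changes of the 4 genes (vertical axis, second group minus first) in the 6 comparisons between groups, with bars for the standard error and an asterisk where the edgeR FDR was under 0.05. The asterisks mark NPSR1 at -1.78 and -3.11 against SPs and at -2.76 between LP days 1 and 28.

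Taken over the 4 genes, the difference from SPs was seen at LP days 7 and 28. At LP day 1, 3 of the 4 had a log2 fold change below 0, where 49.5% of the 14920 genes tested did, and none was called, where 0% of genes were (497 genes had an unadjusted p under 0.05, and DESeq2 called 2 genes and edgeR's exact test 7). At LP day 7 all 4 were below 0 (51.1% of genes tested), and 1 of 4, NPSR1, was called lower and had no overlap with SPs, where 0.266% of genes were called in either direction, 0.0732% were called lower and 0.778% had no overlap in that direction. At LP day 28 all 4 were below 0 (50.9% of genes), and again NPSR1 was called lower, where 0.248% of genes were (0.67% in either direction), and had no overlap, where 0.871% had none. The study chose these genes for that direction, so nothing is read from these counts. The median log2 fold change of the 4 genes was -0.23, -1.73 and -1.47 at LP days 1, 7 and 28, against medians over all genes tested of 0.0019, -0.0071 and -0.0066.

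Of the 3 comparisons between LP days, 2 had all 4 genes below 0. From LP day 1 to LP day 7 all 4 were lower (50.8% of genes tested), and the quasi-likelihood test called none of them lower (0% of genes were, and 0.0201% were called in either direction, while 828 genes had an unadjusted p under 0.05). DESeq2 called 4 genes lower and edgeR's exact test 5, SOX14 among the latter (FDR 0.0259). SOX14 alone of the 4 had no overlap (0.134% of genes). From LP day 1 to LP day 28 all 4 were lower (50% of genes), and NPSR1 was called lower (0.0405% of genes, and 0.216% in either direction) and had no overlap (0.196% of genes). From LP day 7 to LP day 28, 2 of the 4 were lower (49.9% of genes tested), none was called lower (0.00672% of genes were, while 1061 had an unadjusted p under 0.05) and none lacked overlap (0.222% of genes). In these 3 comparisons the 4 genes had medians of -1.36, -1.16 and 0.06, and all genes tested had medians of -0.0040, -0.00012 and 0.00052. The comparisons share samples with each other and with those against SPs, and the LP samples took part in the study's choice of the genes.

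Set against their own SP means, the genes took different courses, whose difference was not tested. At LP day 1 the means were 97.5% of SP for PAQR6, 83.1% for NPSR1, 87.4% for C1orf110 and 79.7% for SOX14. NPSR1 was at 29.3% of its SP mean at LP day 7 and at 11.3% at LP day 28. C1orf110 was at 31.4% and 34.0% and SOX14 at 28.9% and 37.6% on the same days, so both had their lower mean at LP day 7. PAQR6 was at 73.5% and 69.6%. Chromogranin A (CHGA), a protein of secretory granules and the strongly expressed SP marker, was at 81.7%, 45.3% and 31.0% at LP days 1, 7 and 28. CHGA levels varied less between samples, at 3384 ± 684 CPM on SPs (SD, n = 5) and 1051 ± 243 CPM at LP day 28 (SD, n = 6).

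**Figure D3:**
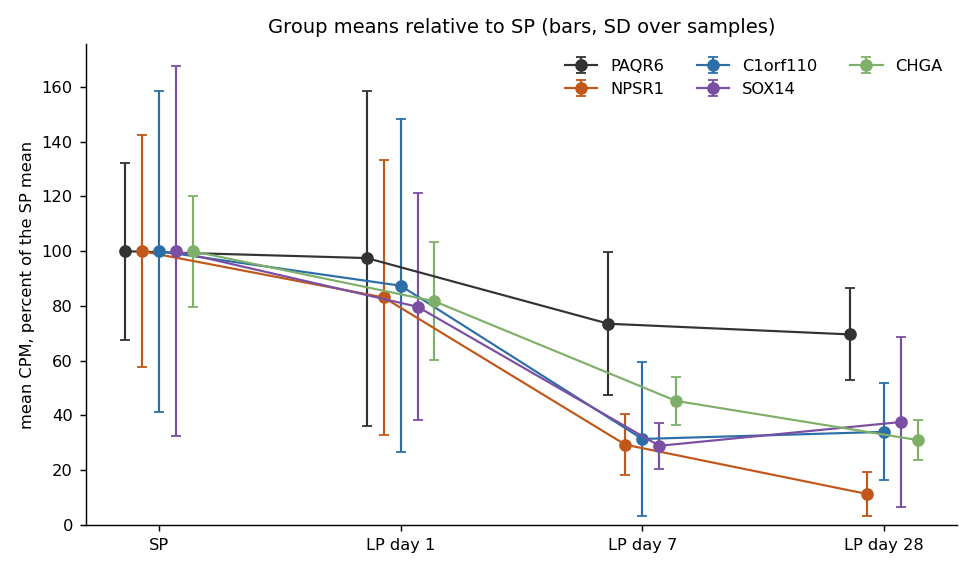
Group means of PAQR6, NPSR1, C1orf110, SOX14 and CHGA as percent of each gene's SP mean (vertical axis) by group, with bars for the SD over 5 or 6 samples. NPSR1 goes down to 29.3% and 11.3% at LP days 7 and 28, while PAQR6 stays at 73.5% and 69.6%.

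Levels on SPs depended on which SP samples were taken. The mean of SP samples 2, 3 and 5 was above that of samples 1 and 4 for all 4 genes, by 1.7-fold for PAQR6, 1.63-fold for NPSR1, 1.71-fold for C1orf110 and 1.98-fold for SOX14. These 3 samples are those used alone in one of the alternatives, no label sets them apart, and the split was not tested. Single samples went against it, as SOX14 was lowest in SP sample 3, C1orf110 was lowest in SP sample 2 and NPSR1 was lower in sample 3 than in sample 4. The mean log2(CPM + 1) of the glial genes S100B, GFAP and VIM was 7.89, 8.70 and 8.57 in samples 2, 3 and 5. It was 6.79 and 7.67 in samples 1 and 4. For the hypothalamic genes AGRP, NPY and KISS1 it was 5.80, 5.33 and 5.55, against 4.04 and 4.74. The part of such tissue in the split was not tested, and the share of all genes with this direction was not computed. With SP samples 2, 3 and 5 alone, the log2 difference on LP day 28 was -0.77 for PAQR6, -3.35 for NPSR1, -1.77 for C1orf110 and -1.75 for SOX14. Of these only NPSR1 was called by edgeR.

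CRY1, a repressor of the circadian clock, was either low or high in each sample. It lay between 16.9 and 34.5 CPM in 10 samples and between 138 and 406 CPM in 13, and no sample changed side with the boundary at 60 or 100 CPM in place of 80. The CRY1-high samples were SP samples 2, 4 and 5, LP day 1 samples 2, 3, 4 and 5, and samples 2, 4 and 6 of LP days 7 and 28. Since these sets were read from the data and are not groups of the study, the 4 genes are described on both sides with no test.

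SOX14 was higher in CRY1-high than in CRY1-low samples in 3 of the 4 groups. On SPs its mean was 23.9 CPM in the 3 CRY1-high samples and 7.93 CPM in the 2 CRY1-low samples, without overlap, as for 13% of 14998 genes that were higher on the CRY1-high side. At LP day 28 the means were 9.77 and 3.40 CPM, and at LP day 7 they were 5.70 and 4.42 CPM, with overlap on both days. LP day 1 showed no such difference, with means of 14.3 and 13.4 CPM. The former included 26.7 CPM in the shallow sample 4, from 9 counts, while CRY1-high samples 2, 3 and 5 stood at 6.87, 15.9 and 7.65 CPM. The difference of mean log2(CPM + 1), averaged over the 4 groups, was 0.685, and 0.313% of 14998 genes had a larger one.

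NPSR1 went in opposite directions in 2 groups. On SPs its mean was 9.79 CPM in CRY1-high and 4.86 CPM in CRY1-low samples, and at LP day 1 it was 4.53 CPM in CRY1-high and 10.4 CPM in CRY1-low samples. The samples did not overlap in either group, as for 13% of 14998 genes higher on the CRY1-high side on SPs and 6.78% of genes lower on that side at LP day 1. At LP day 1 this rests on 8.90 CPM in sample 4, which is 3 counts, against 9.13 CPM in sample 6. At LP day 7 the means were alike, at 2.28 and 2.29 CPM. Differences at LP day 28, of 0.470 and 1.30 CPM, were at 6 counts or fewer per sample. C1orf110 was lower in CRY1-high samples in 3 groups and higher at LP day 28, with overlap in every group. PAQR6 differed by at most 0.238 in mean log2(CPM + 1) between CRY1 states in any group.

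**Figure D4:**
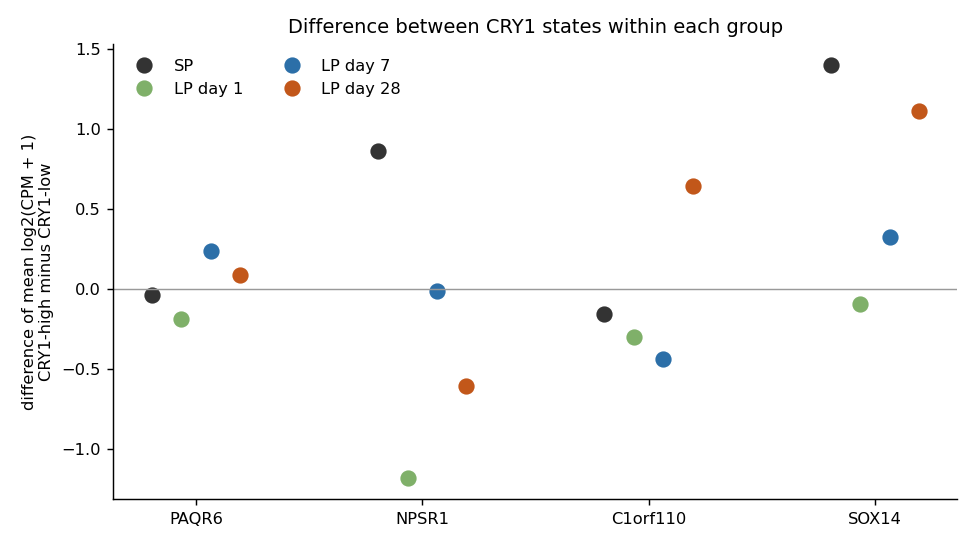
Difference of mean log2(CPM + 1) between CRY1-high and CRY1-low samples (vertical axis) of each gene, with 1 point per group. SOX14 lies above 0 in 3 groups, by up to 1.40 on SPs, and NPSR1 lies at 0.859 on SPs and at -1.18 at LP day 1.

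The photoperiod difference was also read within each CRY1 state, over 2 to 4 samples a side. Between SPs and LP day 28 the log2 ratio of mean CPM of NPSR1 was -4.38 in CRY1-high and -1.91 in CRY1-low samples, without overlap in either (8.27% and 11.3% of genes were lower at LP day 28 without overlap), the former from 3 counts or fewer in each LP day 28 sample. For SOX14 it was -1.29 and -1.22, for C1orf110 -1.04 and -2.28, and for PAQR6 -0.42 and -0.65. SOX14 and C1orf110 also had no overlap in CRY1-low samples, as for 11.3% of genes, but overlapped in CRY1-high samples. PAQR6 overlapped in both states. At LP day 1 the states went apart. The log2 ratio to SPs was -1.11 in CRY1-high and 1.10 in CRY1-low samples for NPSR1, and -0.74 and 0.75 for SOX14. With CRY1 state as a covariate, SOX14 differed by -1.57 between SPs and LP day 7 (FDR 0.0397, edgeR).

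Whether the 4 genes varied together between samples of one group, which their choice by photoperiod did not use, was read from the deviations of log2(CPM + 1) from group means over all 23 samples. Over all 23 samples, PAQR6 and C1orf110 had the highest correlation of the 6 pairs, with Pearson's r of 0.558 (permutation p 0.016, adjusted p 0.224 over 14 relations) and Spearman's rho of 0.541 (permutation p 0.0196, adjusted p 0.274). Without the 2 samples farthest from the median of PAQR6, r was 0.406, so that the relation rested in part on them. NPSR1 with SOX14 had an r of 0.235 (permutation p 0.314, adjusted p 0.627). The other 4 pairs had r between -0.188 and 0.184, but PAQR6 with NPSR1 went from 0.149 to 0.525 (permutation p 0.0316, adjusted p 0.443) without the 2 samples farthest from the median, above PAQR6 with C1orf110 in that setting. No correlation of a member with CHGA passed the adjustment, with r from -0.276 to 0.304 and adjusted permutation p of 0.627 or more. With PRL, the main hormone gene of the pars distalis, SOX14 had an r of -0.438 (permutation p 0.0461, adjusted p 0.323) and NPSR1 an r of -0.355 (permutation p 0.17, adjusted p 0.627).

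PAQR6 and C1orf110 moved with markers that glia share with folliculostellate cells, the supporting cells of the pituitary. This relation, chosen after seeing the data, took the mean log2(CPM + 1) of S100B, GFAP and VIM, all 3 markers of the list, as deviation from the group mean. PAQR6 had Pearson's r of 0.842 with it (permutation p 2e-05, adjusted p 0.00016 over 8 relations) and Spearman's rho of 0.816 (adjusted permutation p 0.0004). C1orf110 had an r of 0.706 (permutation p 0.00136, adjusted p 0.00544) and a rho of 0.713 (adjusted permutation p 0.00512). Without the 2 samples farthest from the median of the gene itself, r was 0.761 for PAQR6 and 0.616 for C1orf110. For NPSR1 and SOX14, r was 0.362 and -0.113 (adjusted permutation p 0.326 and 0.636). The study also stained tanycytes of the adjoining hypothalamus for vimentin, the product of VIM, so these markers do not tell pituitary from brain cells. The share of all genes with as high an r was not computed.

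The summed level of S100B, GFAP and VIM ranged from 887 to 1877 CPM on SPs and, on the LP days in order, from 719 to 1987, 841 to 1471 and 1023 to 1345 CPM, and none of the 3 was called between SPs and LP day 28. GFAP, the intermediate filament of astrocytes, went from 47.8 CPM in LP day 1 sample 2 to 832 CPM in LP day 1 sample 5, which were also the lowest and the highest samples of PAQR6. With the markers as a covariate, PAQR6 differed from SPs by -0.45 on LP day 7 (SE 0.181, FDR 0.253, edgeR) and -0.42 at LP day 28 (SE 0.176, FDR 0.258, edgeR). C1orf110 had -1.58 and -1.27 (FDR 0.128 and 0.12, edgeR), NPSR1 -1.77 and -3.04 (FDR 0.0292 and 0.00154, edgeR) and SOX14 -1.75 and -1.36 (FDR 0.0561 and 0.178, edgeR) at the same days. The standard error of PAQR6 between LP days 1 and 7 was 0.313 without the covariate and 0.181 with it.

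Of 15 listed markers of hypothalamic neurons, 3 could be paired with an identifier, the neuropeptide genes AGRP, NPY and KISS1. Their deviations had an r of 0.69 with PAQR6 (permutation p 0.00277, adjusted p 0.00739) and of 0.51 with C1orf110 (permutation p 0.0279, adjusted p 0.0558), and of 0.159 and 0.264 with NPSR1 and SOX14 (adjusted permutation p 0.636 and 0.352). Without the 2 samples farthest from the median of PAQR6, r was 0.586 for that gene. Their summed level lay between 22.5 and 221 CPM over the 23 samples.

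**Figure D5:**
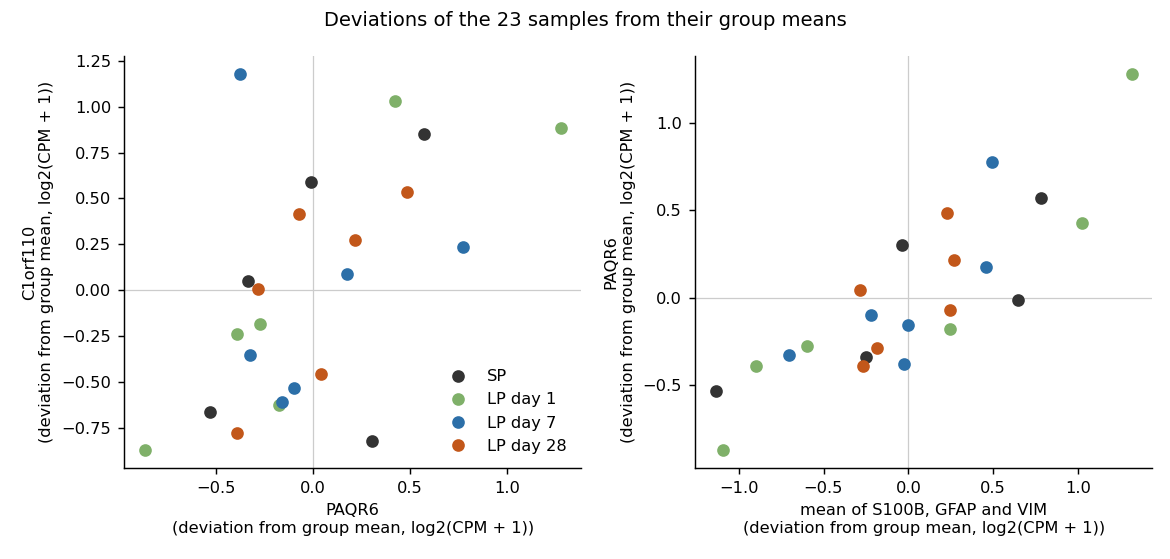
Deviations of the 23 samples from their group means in log2(CPM + 1), coloured by group, with C1orf110 against PAQR6 on the left and PAQR6 against the mean of S100B, GFAP and VIM on the right. The left relation has an r of 0.558 and the right one an r of 0.842.

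The genes most like each member over the 23 samples, by Pearson's r of log2(CPM + 1) among 869 or 870 other genes with a symbol and a mean of at least 5 CPM, are given as a description. For PAQR6 they were ALDOC, a brain form of the glycolytic enzyme aldolase (r = 0.857), SLC39A12, a zinc transporter (r = 0.854), and CSPG5, a proteoglycan of nervous tissue (r = 0.851). Nearest to C1orf110 were SPARCL1, a secreted matrix protein (r = 0.833), FABP5, a fatty acid binding protein (r = 0.795), and TCFL5, a DNA-binding protein (r = 0.786). Nearest to NPSR1 were ARNTL, the clock activator known as BMAL1 (r = 0.854), CHGA (r = 0.836) and BFSP2, a filament protein of the lens (r = 0.806). For SOX14 the values were lower, with AGER, the receptor for advanced glycation end products (r = 0.722), GADD45G, a stress-response gene (r = 0.705), and FAM171A2 (r = 0.702). All symbols come from genes that the study called changed in these or related samples, and the points share group differences and sequencing depth.

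ARNTL, the nearest to NPSR1, had means of 49.0, 48.3, 31.7 and 26.9 CPM on SPs and after 1, 7 and 28 days of LPs. Among the listed clock genes, 11 of 13 were paired and tested between SPs and LP day 28, where ARNTL was called lower (log2 -0.86, SE 0.192, FDR 0.0481, edgeR) and none of the other 10 was called. GADD45G, near SOX14, had means of 43.4, 46.4, 7.29 and 1.69 CPM in the same order of groups.

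Relatives of the 4 genes could be read only in part, because few had a symbol. Of 12 listed genes of the PAQR family, adiponectin receptors and membrane progesterone receptor components, PAQR5 alone was paired, at means from 0.504 to 0.802 CPM, and it was too low to be tested. Of 18 other SOX genes, SOX10 alone was paired, and it differed by -0.71 in log2 between SPs and LP day 28 (SE 0.458, FDR 0.524, edgeR). Of 18 listed peptide receptors and the NPSR1 ligand, the receptors for thyrotropin-releasing hormone (TRHR) and gonadotropin-releasing hormone (GNRHR) were paired, and their log2 fold changes at LP day 28 were 0.0023 and 0.0012 (FDR 0.999 and 0.998, edgeR). None of 16 listed genes of cAMP and calcium signalling was paired, so these pathways were not analysed here.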

How the data were processed

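PT RNA of 23 samples was sequenced from standard Illumina cDNA libraries. The authors deposited read counts per Ensembl sheep gene, whole numbers with no normalization. The submitters' processing notes name Bowtie, HTSeq and the Oar_v3.1 build, whereas the file headers have the form that featureCounts writes, so the counting program and its strand setting were not settled. Groups were taken from the sample labels. Total counts ranged from 307952 to 4413929 with a median of 3332320, and every file column was used.

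All fits were made with edgeR 4.0.16 under R 4.3.3. For each pair of groups, genes were kept if the number of samples above 1 CPM of the library total was no less than the size of the smaller group, TMM factors were computed, and the quasi-likelihood test was run over all genes kept. Genes were called at a Benjamini-Hochberg FDR under 0.05. Standard errors were derived from the fold change and its F statistic. The tests were checked on simulated data. Correlations used deviations of log2(CPM + 1) from group means, with 100000 permutations within groups (two-sided; Python 3.11.15, NumPy 2.4.6, SciPy 1.17.1; figures with matplotlib 3.10.9). Symbols came from the study's tables, which pair 1259 genes, all of them genes that the study called changed, so family and marker lists were paired in part. Of these, endothelial markers were not paired at all, and tanycyte and leukocyte markers by 1 gene each (DIO2 and PTPRC), which was not called.

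The 4 genes, the lists and the tests were chosen with earlier results of these data known. Genes named beside the 4 are CRY1, CHGA and PRL, the 3 genes most like each, and from lists those that passed a test or up to 3 with the highest mean; S100B, GFAP, VIM, AGRP, NPY and KISS1 are marker lists in full as paired. Alternatives were DESeq2 1.42.0, its size factors, library size alone, no filter on low counts, edgeR's exact test, all groups in a single fit, CRY1 state as a covariate, SP samples 2, 3 and 5 alone, the sample number as a replicate block, and each sample left out in turn. PRL or glial markers as covariates, LP day 1 samples 3 and 4 summed, correlations without LP day 1 samples 1 and 5, and correlations with marker lists were added after seeing the data. No gene coordinates or sequences are given, because no genome of the build used is at hand.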

Additional observations from a re-analysis of the deposited data

Results flagged for a closer look

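C1orf110 in LP day 7 sample 3 stood at 4.21 CPM, from 14 counts, while the next highest of the 6 samples of that day was at 1.71 CPM. This gap took a share of 0.674 of the range of the group, above Dixon's critical value of 0.625 for 6 samples. It was the only such sample in 16 combinations of gene and group. Chance alone gives about 1 in 20 for each combination, so 1 flag among 16 combinations is near what chance gives. The other 3 genes in that sample were at 14.7 CPM (PAQR6), 2.71 CPM (NPSR1) and 2.71 CPM (SOX14), the lowest of its day for PAQR6 and SOX14.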

How the results depend on the processing

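NPSR1 at LP day 28 against SPs kept its call under all 10 alternatives with an adjusted p, between -3.35 and -2.85. DESeq2 gave -3.17 there, with an unadjusted p of 8.29e-10 but without an adjusted p. Against SPs at LP day 7, NPSR1 lost its call with library size alone (-1.76, FDR 0.0649), SP samples 2, 3 and 5 alone (-2.03, FDR 0.0724) and PRL as a covariate (-1.78, FDR 0.0572), all edgeR. Between LP days 1 and 28 it lost its call with PRL as a covariate (-2.20, FDR 0.217, edgeR). SOX14 at LP day 7 against SPs gained a call in the exact test (-1.78, FDR 0.00297, edgeR), DESeq2 (-1.79, adjusted p 0.00152) and with CRY1 state as a covariate (-1.57, FDR 0.0397, edgeR), and between LP days 1 and 7 in the exact test (-1.29, FDR 0.0259, edgeR). PAQR6 at LP day 1 against SPs reversed to -0.0053 in the exact test, -0.25 with SP samples 2, 3 and 5 and -0.048 with glial markers as a covariate, and between LP days 7 and 28 it reversed to 0.066 with glial markers. The causes were not tested.

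Sample numbers showed little pairing of the samples. The mean correlation of deviations was 0.0193 for same-numbered samples (6 of 33 pairs above 0.1) and -0.00381 for different-numbered ones (26 of 165 pairs). By comparison, the same-numbered mean was highest for SPs against LP day 7, at 0.0805 (from -0.11 to 0.245). CRY1 state followed the number in part, since samples 1 were CRY1-low and samples 2 and 4 CRY1-high in every group. At LP days 7 and 28 all odd samples were CRY1-low and all even ones CRY1-high, so number and state are confounded there. The mean correlation was 0.0299 for pairs of the same CRY1 state (22 of 100 above 0.1). It was -0.0305 for pairs of different state (10 of 98 above 0.1). With the number as a replicate block, NPSR1 at LP day 7 against SPs was -1.86 (FDR 0.0534, edgeR), SOX14 was -1.59 (FDR 0.0308, edgeR), and PAQR6 at LP day 1 was -0.10; genes called at LP day 7 went from 40 to 178 and at LP day 28 from 100 to 41.

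Leaving out 1 sample at a time, log2 fold changes against SPs ranged from -0.39 to 0.19 for PAQR6, -0.47 to 0.19 for C1orf110, -0.74 to -0.11 for NPSR1 and -0.73 to -0.11 for SOX14 at LP day 1, and from -1.95 to -1.55 for NPSR1, -1.99 to -1.38 for SOX14 and -0.66 to -0.28 for PAQR6 at LP day 7. Between LP days 7 and 28 they ranged from -0.16 to 0.15 for PAQR6, -0.0096 to 0.78 for C1orf110 and -0.12 to 0.51 for SOX14, and between LP days 1 and 28 from -3.02 to -2.38 for NPSR1, whose call was lost without LP day 1 sample 1 or 6 or LP day 28 sample 3 or 6 (FDR 0.0832, 0.0628, 0.0584 and 0.0618, edgeR). Correlations reversed without the 2 farthest samples for PAQR6 and SOX14 (0.0928), NPSR1 and C1orf110 (-0.0514) and PAQR6 and PRL (-0.145), the last also without LP day 1 samples 1 and 5 (-0.125).

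Over the alternatives with all samples or a fixed set of them, genes called against SPs numbered 0 to 7, 6 to 354 and 40 to 349 on the LP days in order, where the main counts were 0, 40 and 100, and 1 to 17, 0 to 38 and 25 to 78 between LP days 1 and 7, 7 and 28, and 1 and 28, where they were 3, 1 and 32. With 1 sample left out the 6 numbers were 0 to 4, 7 to 113, 41 to 110, 1 to 6, 1 to 5 and 19 to 58. Library size alone moved the share of calls that were lower from 27.5% to 4.17% at LP day 7 and from 37% to 64% at LP day 28, and the median of all genes by -0.121 between LP days 7 and 28. At LP day 28, NPSR1 had 1 to 6 counts and C1orf110 1 to 9 counts per sample, which limits the precision of both.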
